A study of Canis lupus familiaris with 12 samples.

Results

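The comparison described here sets C2 cells after 12 h in 100 nM masitinib mesylate against the same cells before treatment, on 3 Affymetrix canine arrays per group. Its members are the 6 arrays whose titles give 0 h or 12 h, of 12 arrays in the whole series, and all 42924 probe sets other than Affymetrix control probe sets. C2 is an established line from a canine mast cell tumour that carries a tandem duplication in the juxtamembrane region of KIT, and both groups carry it. The cells grew in flasks in medium with 10% foetal calf serum at passages 3 to 10, the 0 h RNA was taken just before masitinib was added, and the other 6 arrays hold cells after 24 h and 72 h in the drug. All samples come from 1 line, and no array of untreated cells at 12 h was used here, so the drug and 12 h in culture cannot be told apart. The p-values measure the spread between arrays of this 1 line.

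KIT is the receptor tyrosine kinase for stem cell factor. When active it signals through RAS, RAF, MEK and ERK to immediate early and ETS transcription factors, and through PI3K and AKT, which keep the FOXO transcription factors out of the nucleus. Normal mast cells need KIT for survival, and the juxtamembrane duplication leaves the receptor active without its ligand. Masitinib blocks the kinase activity of KIT, of the platelet-derived growth factor receptors and of some SRC family kinases. Feedback genes such as the dual-specificity phosphatases and the SPRED proteins are transcribed when ERK is active and restrain the same pathway.

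The 8 mast cell markers gave a mean log2 signal of 12.14 to 12.23 on the untreated arrays and 12.45 to 12.55 on the treated ones, and none passed the test. CPA3, the mast cell carboxypeptidase, was at 14.34 and 14.41, and MS4A2, the beta chain of the IgE receptor, at 13.72 and 14.02. The markers of T cells, B cells, endothelial cells and fibroblasts had list means of 4.73 to 6.19 in both groups with no call. Single members were higher: the highest before treatment was at 6.68 for T cells, 7.55 for B cells, 9.24 for endothelial cells and 6.06 for fibroblasts. Of the other lists, 1 of 9 macrophage and monocyte markers rose (LYZ, 9.25 to 10.54), 1 of 6 neutrophil markers (S100A8, 4.70 to 5.46), 1 of 4 erythroid markers (EPB42, 4.67 to 5.99) and 2 of 4 epithelial markers (EPCAM, 8.72 to 9.52, and KRT18, 6.94 to 7.72). The macrophage and monocyte list had a mean level of 5.97 to 6.02 on the untreated arrays and 6.06 to 6.14 on the treated ones. The neutrophil list had 5.35 to 5.38 before and 5.53 to 5.57 after treatment, the erythroid list 6.74 to 6.82 and 7.12 to 7.21, and the epithelial list 5.77 to 5.82 and 6.12 to 6.36. CD163, MPO, SLC4A1 and KRT8 of these lists stayed between 3.12 and 5.31 in both groups without a call. The highest erythroid marker was at 11.0 before treatment and was not called. The S100A8 call was lost without any 1 of the 6 arrays (0.70 to 0.80). The part of these cell types in the results was not tested. The untreated array 1 stood apart from the other two, as described at the end of the report. Both kinds of spiked control were brighter at 12 h although array medians lay between 5.89 and 5.95. The poly-A controls had 7.74 ± 0.119 and 7.98 ± 0.0472, and the hybridization controls 10.8 ± 0.0366 and 11.0 ± 0.0877 (log2, mean ± SD, n = 3). Fewer cells of a type cannot be told apart from less RNA per cell.

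After 12 h, 1599 of 15115 genes (10.6%) had changed, of which 639 (4.23%) rose and 960 (6.35%) fell. Each gene is given by its brightest probe set, and a change is called at more than 1.5-fold and an adjusted p under 0.001 in limma. The median log2 change over all genes was 0.01. Over probe sets with 1 gene symbol, 2826 of 29254 (9.66%) were called, 1104 up (3.77%) and 1722 down (5.89%), so that 60.93% of the calls were falls. That share was 82.76% when the arrays were shifted to equal hybridization controls and 86.63% with equal poly-A controls, shifts of 0.19 and 0.24 on the log2 scale. All changes below are relative to the deposited normalization. Calls depended on signal: 0.609% of the 3779 dimmest genes were called and 19.7% of the 3779 brightest. More than 2-fold changes were seen in 212 rising and 332 falling genes, and more than 8-fold changes in 3 of each. The 3 treated and 3 untreated arrays did not overlap in 12405 of the 29254 probe sets with 1 gene symbol (42.4%). The 25 largest changes named per direction were taken from called genes without overlap. For those genes, separate groups are no further support.

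**Figure D1:**
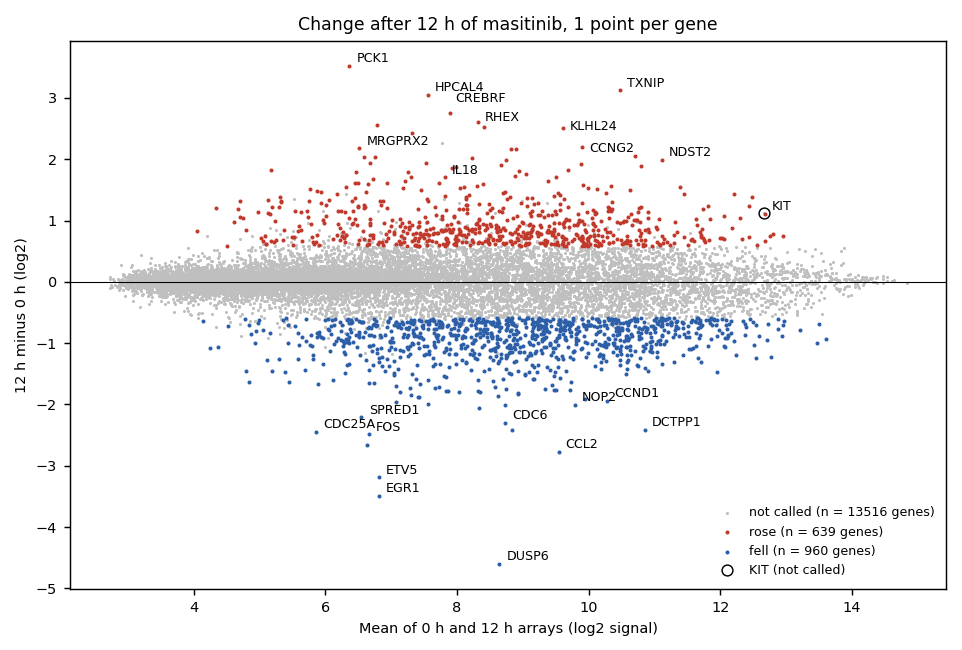
The log2 change from 0 h to 12 h (vertical) against the mean log2 signal of both groups (horizontal), 1 point for each of 15115 genes, red for the 639 that rose, blue for the 960 that fell and grey for those not called. DUSP6 at the bottom fell by 4.60 and PCK1 at the top rose by 3.53, and KIT with 1.12, not called, is ringed in black because the called gene TSC22D1 (1.11) covers its point.

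Genes that ERK signalling switches on held the deepest falls. DUSP6, the phosphatase that inactivates ERK in the cytoplasm, gave 10.92, 10.97 and 10.93 on the untreated arrays and 6.31, 6.45 and 6.27 on the treated ones, a log2 change of -4.60 ± 0.08 (SE, adjusted p = 2.72e-11, limma). Its groups lay far apart, and its other probe set fell by 3.18. SPRED1, which holds back RAS, fell from 7.43, 7.79 and 7.73 to 5.40, 5.67 and 5.26 (log2 change -2.21, adjusted p = 2.53e-08, limma). Of the 17 measured members of the feedback list, 5 fell and none rose, with a median of -0.22. The other 3 were DUSP5 (-1.09), DUSP1 (-1.03) and DUSP7 (-0.71), phosphatases of the same family. The DUSP7 call was lost without untreated array 2 or 3 or treated array 1 or 3 (-0.84 to -0.63 over the 6 omissions). DUSP10, which acts mainly on JNK and p38, had -0.47, and SPRY1, SPRY4, SPRED2 and SPRED3 lay between -0.30 and -0.01 without a call. At 72 h DUSP1 was 0.24 above its 0 h level and DUSP6 had -4.27.

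The ETS factor ETV5 gave 8.44, 8.51 and 8.26 before and 4.93, 5.35 and 5.36 after 12 h (log2 change -3.19 ± 0.12 SE, adjusted p = 3.24e-09, limma). The related ETV4 fell by 0.86. The brightest probe set of ETV1, the third member of this ETS group, had -0.55 and missed the call (adjusted p = 0.00553, limma), while its other probe set fell by 1.53. In the list of ETS factors and other ERK targets, 7 of 18 fell and 1 rose, TRIB1 (0.81), a pseudokinase. CCND1 (-1.94), ODC1 (-1.35), IER3 (-1.18), IER2 (-0.90) and MYC (-0.65) were the others that fell. ELK1, ELK3 and HBEGF, the first 2 of them substrates of ERK themselves, changed by 0.13, -0.01 and 0.08 and were not called.

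Of the immediate early genes 3 fell and 1 rose. EGR1 fell from 8.64, 8.36 and 8.67 to 5.45, 5.05 and 4.71 (log2 change -3.49 ± 0.16 SE, adjusted p = 1.08e-08, limma), and FOS from 7.87, 7.90 and 7.94 to 5.46, 5.22 and 5.57 (-2.49 ± 0.11 SE, adjusted p = 7.07e-09, limma). Treated and untreated arrays were fully separate for both genes, as in 42.4% of all named probe sets. The other probe set of EGR1 fell by 1.56, and the other one of FOS changed by -0.26 without a call. ID1, an inhibitor of basic helix-loop-helix factors, fell by 1.03 and KLF6 rose by 0.60, a call that was lost without untreated array 3 or treated array 1 or 3 (0.51 to 0.67 over the 6 omissions). The remaining 12 of 16 were not called, among them JUN (0.26), JUNB (0.02), FOSB (-0.12), EGR2 (-0.20) and EGR3 (-0.06). The last 4 were between 4.23 and 5.86 before treatment, below the array medians.

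**Figure D2:**
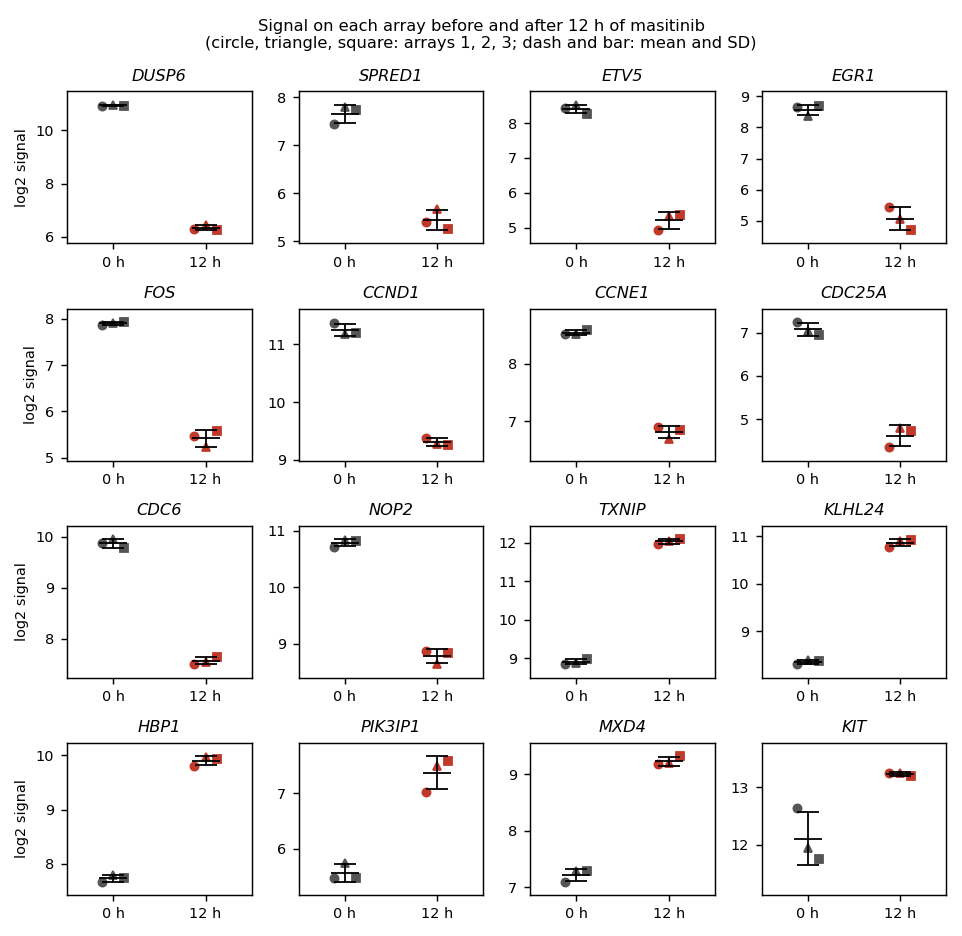
Log2 signal of 16 genes on the 3 untreated arrays (grey) and the 3 arrays after 12 h of masitinib (red), with the mean and SD; each panel has its own vertical scale. The groups do not overlap in any panel, and the 3 untreated values of KIT are spread from 11.75 to 12.63 while the treated ones lie at 13.19 to 13.25.

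KIT itself was measured at 12.63, 11.94 and 11.75 before treatment and at 13.24, 13.25 and 13.19 after 12 h. The treated arrays were all above the untreated ones, but untreated array 1 was higher than the other two, and the change of 1.12 ± 0.28 (SE) was not called (adjusted p = 0.00911, limma). The second KIT probe set gave 1.15, also without a call. Without untreated array 1 the change was 1.38 with an adjusted p of 0.00279 in limma, and 3.90e-05, a call, when only the 5 other arrays of 0 h and 12 h were fitted. That fit of 5 arrays was chosen after seeing the data and leaves out the untreated array that was highest for KIT. Of 13 measured kinases that masitinib can bind, LCK (0.59) was the only one called. It was not called after scaling to either kind of control, nor without untreated array 2 (0.54) or treated array 3 (0.55). PDGFRA (0.59) and PDGFRB (0.08), at 5.74 and 6.06 before treatment, and LYN (-0.21), FYN (0.04) and SRC (-0.11) had no call. Among 19 genes of the RAS, RAF, MEK and ERK core, 1 changed: GAB2, an adaptor of KIT, fell by 0.60, with a median of -0.09 for the list. The GAB2 call was kept only without treated array 3, and leaving out any of the other 5 arrays ended it (-0.65 to -0.50). In the JAK and STAT list, SOCS2 (-0.91) and CISH (-0.66), feedback genes that STAT5 switches on, and the cytokine OSM (-1.03) fell, and EPOR, the erythropoietin receptor, rose by 0.78, out of 24 measured. The called share of this list was 16.7%, against 10.6% over all genes.

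The FOXO list moved the other way. Of 31 measured members 21 rose and none fell, with a median log2 change of 1.00, and 17 still rose with poly-A scaling. TXNIP, an arrestin-related protein that limits glucose uptake, rose from 8.86, 8.88 and 8.99 to 11.96, 12.05 and 12.09 (log2 change 3.13 ± 0.07 SE, adjusted p = 8.49e-11, limma). CREBRF, a regulator of the CREB3 factors, rose from 6.83, 6.47 and 6.23 to 9.21, 9.26 and 9.34 (2.76, adjusted p = 2.76e-07, limma). KLHL24, a ubiquitin ligase adaptor, went from 8.30, 8.39 and 8.36 to 10.77, 10.90 and 10.91 (2.51, adjusted p = 3.11e-10, limma). In each of the 3 the groups were separated by more than 2 log2 units. The transcriptional repressor HBP1 (2.16), CCNG2, a cyclin of resting cells (2.21), FBXO32, a ubiquitin ligase subunit (1.60), PDCD4, an inhibitor of translation (1.43), BCL6 (1.15), RBL2 (1.15) and CDKN1B, the CDK inhibitor p27 (1.14), followed. FOXO1 (0.91) and FOXO3 (0.83) rose as well, but the call of FOXO1 was lost without any 1 of the 6 arrays (0.84 to 0.95). FOXO4, IRS2, INSR and BCL2L11, the last encoding the death protein BIM, lay between -0.03 and 0.00.

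Several inhibitors of PI3K and of mTOR rose, and PIK3CA was the only PI3K subunit in its list that was called. In the PI3K list 7 of 34 rose and none fell, and the median was -0.02. DEPTOR, an inhibitor of mTOR, rose from 8.15, 7.58 and 7.41 to 9.63, 9.55 and 9.66 (1.90, adjusted p = 6.59e-06, limma). The untreated array 1 was the highest of the untreated arrays here too. SESN3 (1.82), SESN1 (1.03) and DDIT4 (0.88), which restrain mTOR complex 1, and PIK3IP1 (1.79), which binds and inhibits PI3K, rose, as did IGF1R (0.76) and PIK3CA (0.66). AKT1 (-0.19), MTOR (-0.15), RHEB (-0.15) and PIK3R1 (0.42) were not called. Beside TXNIP, ARRDC4 (1.26) and ARRDC3 (0.72) rose among 15 alpha-arrestins and glucose uptake genes, and the glucose transporter SLC2A6 fell by 0.85. The ARRDC3 call was lost without untreated array 1 or 2 or treated array 2 or 3 (0.64 to 0.86 over the 6 omissions). Among 12 genes of the MYC and MAX network, MXD4, a MAX partner that represses MYC targets, rose from 7.10, 7.28 and 7.28 to 9.18, 9.20 and 9.33 (2.02, adjusted p = 5.93e-09, limma). MXD1 rose by 0.82, MYC fell by 0.65 from 9.89, 9.83 and 9.87 to 9.19, 9.24 and 9.23, and MYCN fell by 0.74, a call that was lost without any 1 of the 6 arrays (-0.79 to -0.64).

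**Figure D3:**
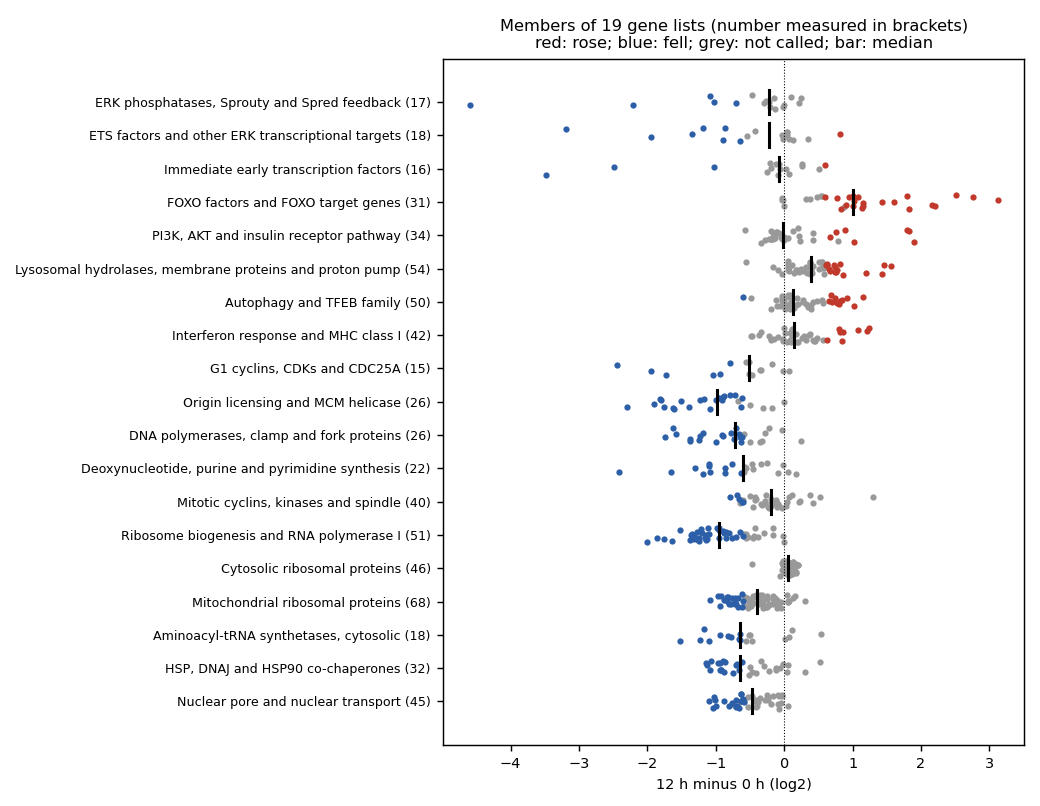
Log2 change from 0 h to 12 h (horizontal) of every measured member of 19 gene lists (vertical), red where it rose, blue where it fell and grey where it was not called, with the list median as a black bar. The FOXO list lies to the right with a median of 1.00, origin licensing and ribosome biogenesis lie to the left with medians of -0.98 and -0.96, and the cytosolic ribosomal proteins sit at 0.05.

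Genes of the G1 to S transition and of DNA replication fell broadly. Of 15 G1 cyclins, kinases and their activator CDC25A, 6 fell and none rose (median -0.52). CCND1, which couples growth factor signals to CDK4, fell from 11.37, 11.18 and 11.20 to 9.38, 9.28 and 9.26 (-1.94, adjusted p = 5.21e-09, limma). CCNE1 fell from 8.52, 8.50 and 8.58 to 6.89, 6.69 and 6.84 (-1.73, adjusted p = 5.23e-08, limma), and CDC25A from 7.25, 7.03 and 6.95 to 4.35, 4.80 and 4.73. All 3 had separate groups, as had 42.4% of all named probe sets. CCND2 fell by 1.04, CCNE2 by 0.94 and CDK7 by 0.80. At 24 h CCND2 had -0.35 against 0 h. Among 14 CDK inhibitors and pocket proteins, RBL2, CDKN1B and TFDP2 (0.62) rose, and LIN9 (-1.07) and RBL1 (-1.05) fell. CDKN1A, the p53 target p21, gave 0.13 without a call. E2F8 (-1.08) and E2F5 (-0.98) fell out of 7 E2F genes.

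In the origin licensing list 21 of 26 fell and none rose, with a median of -0.98. CDC6, which loads the MCM helicase, fell from 9.88, 9.95 and 9.78 to 7.51, 7.55 and 7.65 (-2.30 ± 0.08 SE, adjusted p = 9.79e-10, limma), and ORC1, the first subunit of the origin recognition complex, by 1.91. Grouped by complex after their values were seen, 4 of 6 ORC subunits, 5 of the 6 helicase subunits MCM2 to MCM7 and all 4 GINS subunits fell. MCM2 had the largest change of the helicase (-1.81) and MCM6 the smallest that was called (-0.79). Of 26 polymerase, clamp and fork genes 18 fell and none rose (median -0.72), led by POLE2 (-1.75), FEN1 (-1.63) and DSCC1 (-1.58), and the clamp PCNA fell by 1.23. Leaving out 1 array gave from 12 falls (without untreated array 2 or treated array 2) to 17 (without treated array 3). The medians then lay between -0.78 and -0.68. The methods' analysis of variance gave 13 falls. Of 22 genes of nucleotide synthesis 11 fell and none rose (median -0.61). DCTPP1, which clears dCTP and its analogues, fell from 12.05, 12.07 and 12.05 to 9.73, 9.54 and 9.65 (-2.42, adjusted p = 8.13e-10, limma). PPAT, the first enzyme of purine synthesis, fell by 1.65, and the 3 genes of the pyrimidine route, CAD (-1.11), UMPS (-1.08) and DHODH (-0.76), all fell.

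Of 40 mitotic genes 5 (12.5%) fell at this time and none rose, with a median of -0.19. Falls were called in 6.35% of all genes but in 469 of the 3779 brightest. The mitotic list was bright, with a mean log2 level of 9.83 before treatment, so its share is not set apart from that of bright genes. The 5 were CDK1 (-0.79), PLK4 (-0.69), ECT2 (-0.67), FOXM1 (-0.62) and SPC25 (-0.60). Leaving out untreated array 2 or treated array 1 left 2 falls. The call of ECT2 was lost without any 1 of the 6 arrays (-0.71 to -0.64), and that of PLK4 with all but treated array 3 left out in turn (-0.76 to -0.62 over the 6 omissions). In the direct comparison of 24 h with 12 h, 36 of the 40 fell and the list median was -2.61, against 16 of 26 and -0.96 for origin licensing. CENPF, at 9.56, 8.45 and 8.13 before and 10.0 on average after 12 h, had a change of 1.29 that was not called (adjusted p = 0.0608, limma).

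Ribosome assembly genes fell, and no mRNA of a cytosolic ribosomal protein was called. All 51 measured genes of ribosome biogenesis and RNA polymerase I had changes below 0, 38 fell, and the median was -0.96. NOP2, a methyltransferase of ribosomal RNA, fell from 10.71, 10.84 and 10.82 to 8.88, 8.63 and 8.83 (-2.01, adjusted p = 3.56e-09, limma). MYBBP1A (-1.86), MRTO4 (-1.76), NOC4L (-1.64) and DKC1, the pseudouridine synthase dyskerin (-1.52), came next. Sorted by role after their values were seen, 18 of 21 small subunit processing genes, 12 of 13 large subunit assembly genes, 5 of 8 snoRNP proteins and 3 of 7 RNA polymerase I genes fell. The RNA polymerase I subunits POLR1A and POLR1C fell by 1.36 and 1.25. None of the 46 cytosolic ribosomal protein genes was called, their changes ran from -0.47 (RPL26) to 0.20 (RPL12), and 40 of them had means above 12.9, in the top percent of all probe sets, of which the highest was 14.9. With poly-A scaling their median of 0.05 became -0.19 and 1 was called, a fall.

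The other parts of protein production lay between these. Of 68 mitochondrial ribosomal proteins 20 fell and none rose (median -0.39), with MRPS10 (-1.09) and MRPL12 (-0.97) the lowest. Of 18 cytosolic aminoacyl-tRNA synthetases 10 fell and none rose (median -0.65), led by FARSA (-1.52) and MARS1 (-1.23). Of 37 translation factors 9 fell and none rose (24.3% called), and the median was only -0.11. Their mean level was 12.1 before treatment, and 19.7% of the 3779 brightest genes were called. EIF4E, which binds the mRNA cap, fell by 1.23 and EIF2B3 by 1.12. Of 32 HSP and DNAJ genes 17 fell and none rose (median -0.64), among them FKBP4 (-1.14), HSPH1 (-1.07) and HSPA8 (-0.94), and 4 of 7 subunits of the chaperonin CCT fell, CCT5 by 1.00. In the proteasome list 4 of 27 (14.8%) fell (median -0.20), PSMD7 by 0.75, and 3 without untreated array 1 or treated array 1. This list had a mean level of 12.3 before treatment, and 469 of the 3779 brightest genes fell, so its share is near that of bright genes. In the nuclear pore and transport list 17 of 45 fell and none rose (median -0.47), led by NUP107 (-1.10). Of 47 spliceosome genes, with a mean level of 11.4 before treatment, 9 fell and 2 rose. That is 23.4% called, against 19.7% of the 3779 brightest genes. The 2 were CLK1 (1.13) and CLK4 (0.64), kinases that phosphorylate SR proteins, and the SR protein SRSF7 fell by 1.20.

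Biosynthetic and transport genes fell in several pathways, and few enzymes of energy metabolism were called. MTHFD2, the mitochondrial folate enzyme, fell from 9.49, 9.35 and 9.26 to 7.27, 7.33 and 7.32 (-2.06, adjusted p = 2.27e-08, limma). In the serine, one-carbon and ATF4 list 7 of 22 fell, CTH (-1.50) and ASNS (-0.77) among them, and NUPR1 (1.54) and VLDLR (0.74) rose. Of 22 amino acid transporters 5 fell and none rose, SLC1A5 by 1.83, SLC1A4 by 1.57 and SLC7A5 by 0.91. Among 13 polyamine genes the synthetic enzymes SRM (-1.61), ODC1 (-1.35) and AMD1 (-1.07) and the antizyme inhibitor AZIN1 (-0.66) fell, while SAT1 (0.78), which breaks polyamines down, and the antizyme OAZ2 (0.61) rose. The AZIN1 call was lost without untreated array 1 or 2 or treated array 2 (-0.71 to -0.57 over the 6 omissions). Of 27 cholesterol and SREBP genes 9 fell and none rose (median -0.36), with CYP51A1 (-1.02) and FASN (-1.01) the lowest. Both subunits of the enzyme that starts glutathione synthesis fell, GCLC by 1.32 and GCLM by 1.17, and GSS, the next enzyme, rose by 1.03, as did CAT (0.78) and SESN1 in the same list of 30. The called share of that list was 16.7%, against 10.6% over all genes. Of 19 glycolysis genes only PFKP fell (-0.70), and not without untreated array 2 or 3 or treated array 1 (-0.75 to -0.62 over the 6 omissions). Of 28 citrate cycle genes 3 fell (IDH3A by 0.82, DLST by 0.72 and DLAT by 0.63), a called share of 10.7% against 10.6% over all genes. Without untreated array 2 or 3 or treated array 1, 1 fell, as in the fit to the 6 arrays of 0 h and 12 h and in the methods' analysis of variance. Over the 6 omissions DLST had -0.78 to -0.58, and DLAT, which kept its call only without treated array 3, had -0.73 to -0.52. Of 45 respiratory chain genes 1 fell, cytochrome c (CYCS), by 1.45. Of 30 mitochondrial carriers 5 fell and 1 rose, a called share of 20.0% against 10.6% over all genes. The fall was largest for SLC25A33, a carrier of pyrimidine nucleotides (-2.01), and SLC25A27 rose by 1.02.

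Lysosomal genes rose. Of 54 measured 16 rose and none fell, and the median was 0.39 (5 rose and 1 fell, with a median of 0.15, under poly-A scaling). CTSF rose from 7.55, 7.51 and 7.50 to 9.12, 9.03 and 9.12 (1.57 ± 0.06 SE, adjusted p = 4.78e-09, limma), with no overlap, and its other 3 probe sets rose too. LGMN, an asparagine-specific protease (1.46), GM2A, the ganglioside activator (1.43), and CTSS (1.20) followed. Counted after their values were seen, 7 of 10 cathepsins rose (median 0.69), but only 2 of 11 subunits of the proton pump (median 0.18). In the autophagy list 11 of 50 rose, among them BNIP3L (1.15) and OPTN (0.92), receptors for damaged mitochondria, and MAP1LC3B (1.02), and PIK3R4 fell by 0.60. The list median of 0.13 became -0.11 with poly-A scaling. MITF, a factor of the TFEB family and of mast cells, rose by 0.66. Of 35 genes of the unfolded protein response 3 fell, MANF (-1.47), the chaperone HSPA5 (-0.87) and SDF2L1 (-0.67), and PPP1R15A rose by 0.81. The called share of this list was 11.4%, near the 10.6% over all genes.

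Most genes of the mast cell granule and the IgE receptor were not called. Of 28, 4 rose and 2 fell (21.4% called, against 10.6% over all genes), and the median of 0.19 became -0.05 with poly-A scaling. MRGPRX2, a receptor through which basic peptides activate mast cells, rose from 5.33, 5.28 and 5.66 to 7.60, 7.53 and 7.67 (2.18 ± 0.10 SE, adjusted p = 7.67e-09, limma). NDST2, which sulphates heparin in the granule, rose from 10.06, 10.23 and 10.07 to 12.10, 12.04 and 12.18 (1.99, adjusted p = 1.00e-09, limma). For both the treated arrays were well above all untreated ones. LTC4S, which makes leukotriene C4, rose by 1.00 and BTK by 0.71, while PLA2G4A (-0.64) and ALOX5 (-0.61), earlier steps of leukotriene synthesis, fell, ALOX5 not without untreated array 1 or 2 or treated array 3 (-0.69 to -0.53 over the 6 omissions). CMA1 (0.55), FCER1A (0.50), HDC (0.29) and SYK (0.02) had no call.

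Among 40 cytokines, chemokines and receptors 4 rose and 2 fell. CCL2, which attracts monocytes, fell from 10.97, 10.95 and 10.86 to 8.18, 8.15 and 8.13 (-2.77 ± 0.06 SE, adjusted p = 8.68e-11, limma), and VEGFA by 0.96. CCL26, an eotaxin, rose from between 5.21 and 5.70 to between 7.85 and 8.35 (2.56 ± 0.16 SE, adjusted p = 1.29e-07, limma). IL18 rose by 1.71 and IL10 by 1.16. CCL24, another eotaxin, rose from 6.49, 6.73 and 6.88 to 8.20, 8.14 and 8.24 with no overlap. TNF (-0.37), IL13 (0.05) and IL6 (0.13) were not called at 12 h. Of 40 integrin, tetraspanin and adhesion genes 5 rose and 3 fell (20.0% called). ITGA4, the alpha chain of VLA-4, rose from 5.62, 5.42 and 5.65 to 7.31, 7.73 and 7.74 (2.03), and ITGAV by 1.22. ITGA9 fell by 1.38 and ITGA2 by 0.96. The ITGA2 call was lost without untreated array 1 or 3 or treated array 1 or 2 (-1.09 to -0.84 over the 6 omissions). Of 24 blood lineage factors FLI1 (0.92) and MITF rose and GATA3 (-0.94) fell, and GATA2 had 0.36 without a call. The called share of these factors was 12.5%, near the 10.6% over all genes.

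Of 42 interferon response and MHC class I genes 8 rose and none fell, with a median of 0.14 that became -0.10 under poly-A scaling. The largest were the factors IRF2 (1.24), IRF3 (1.22) and IRF9 (1.07), and ISG15 rose by 0.80. Of 17 BCL2 family genes BCL2 fell, from 9.17, 8.82 and 8.50 to 7.74, 7.78 and 7.50 (-1.16, adjusted p = 2.71e-05, limma), and BCL2L14 and BNIP3L rose. The other BCL2 probe set gave -0.08 without a call. The called share of this family was 17.6%, against 10.6% over all genes. Of 30 death receptor, caspase and inhibitor genes CASP2 (-0.86) and CYCS fell and PDCD4 rose, a called share of 10.0% against 10.6% over all genes. Of 22 p53 targets TIGAR (-1.50), XPC (-0.88) and AEN (-0.84) fell and SESN1 rose, a called share of 18.2%.

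The shares called in the remaining lists lay on both sides of the 10.6% over all genes, from 4.76% for the NF-kappa-B group to 26.7% for the clock genes. RGS2 (1.07) and RGS14 (0.76), which switch off G proteins, rose and RGS1 (-0.73) and the adenosine receptor ADORA2B (-1.19) fell, of 26 genes (15.4%). Of 11 Kruppel-like factors (18.2%) KLF6 rose and KLF5 fell by 1.24, and of 21 genes of the NF-kappa-B group CYLD, a deubiquitinase that dampens the pathway, rose by 0.95. In the steroid receptor list of 29 (24.1%), NR1H3, the oxysterol receptor LXR alpha (1.20), NCOA2 (1.18), TSC22D3 (1.00) and PPARA (0.68) rose, and DUSP1, FKBP5 (-0.87) and PPARD (-0.78) fell. The NCOA2 call was kept only without untreated array 1, and leaving out any of the other 5 arrays ended it (1.00 to 1.39 over the 6 omissions). TSC22D3 and FKBP5 are both well-known targets of the glucocorticoid receptor and went opposite ways. Of 15 clock genes NFIL3 (-0.94), BHLHE40 (-0.79) and CRY1 (-0.62) fell and BHLHE41 rose by 0.85. Of 40 Rab GTPases RAB13 (0.82) and RAB4B (0.60) rose and RAB20 (-1.02) and RAB23 (-0.66) fell (10%), but without treated array 1 only RAB20 was called (RAB13 0.71 to 0.90, RAB4B 0.58 to 0.63 and RAB23 -0.76 to -0.54 over the 6 omissions). In all, 375 of the 1599 called genes (23.5%) were on at least 1 of the 53 lists. These lists hold 1432 of the 15115 genes and were chosen with earlier results of these data known.

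Several of the largest changes lay outside the lists. PCK1, the rate-limiting enzyme of gluconeogenesis, rose from 4.33, 4.84 and 4.64 to 8.18, 8.01 and 8.19 (log2 change 3.53 ± 0.12 SE, adjusted p = 1.33e-09, limma). Its other 2 probe sets gave 0.51 and 0.21 without a call, so the rise rests on 1 probe set. HPCAL4, a neuronal calcium sensor, rose from between 5.89 and 6.31 to 8.99, 9.11 and 9.16 (3.05, adjusted p = 2.43e-08, limma). TCP11L2 rose from 7.32, 7.07 and 7.05 to 9.71, 9.68 and 9.63 (2.53, adjusted p = 5.39e-09, limma), and all 3 of its other probe sets rose. For these 3 genes no treated array came within 2 log2 units of an untreated one. VWA5A (2.17), FAM214A (2.05, with all 5 other probe sets up), the potassium channel subunit KCNE3 (1.99), SULT1A1 (1.94), DSCAML1 (1.93), the sorting adaptor GGA2 (1.89) and AOAH, which detoxifies endotoxin (1.87), also rose.

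Among falls outside the lists, the bicarbonate transporter SLC4A10 went from 8.25, 7.88 and 7.78 to 5.37, 5.33 and 5.23 (-2.66, adjusted p = 7.43e-08, limma). HELLS, a chromatin remodeller of S phase, went from 10.06, 10.05 and 10.05 to 7.63, 7.52 and 7.74 (-2.42, adjusted p = 5.54e-09, limma). Both genes were picked from those with separate groups. CHAF1A, which places histones behind the fork, fell by 2.00, and the uracil glycosylase UNG (-1.96), the exonuclease EXO1 (-1.88) and PPRC1, a coactivator of mitochondrial genes (-1.89), fell as well. The stress gene GADD45G fell from 8.15, 8.33 and 8.20 to 6.42, 6.06 and 6.67 (-1.84). Probe sets were called in both directions for 1 gene, SUV39H1, a histone methyltransferase: its brightest probe set fell by 1.05 and another rose by 1.12. Of 13231 probe sets without a gene symbol 965 (7.29%) were called, 534 up and 431 down. The 10 with the largest rises had changes of 2.45 to 2.69, and the 10 with the deepest falls had -3.83 to -2.04.

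Of the genes called at 12 h, 260 had moved further in the same direction by 24 h, 32 had moved back and 1307 showed no call between these times, out of a background of 691 genes (4.57%) called between 12 h and 24 h. Both comparisons use the 12 h arrays. The 32 were 9 genes that had risen and 23 that had fallen. CCL2 came back by 1.19, from 8.15 on average at 12 h to 9.35, and FOS by 1.03. HS3ST1, a heparan sulphate sulphotransferase, had fallen from 7.99, 8.08 and 8.14 to 6.73, 6.72 and 6.70 and came back by 1.18 (adjusted p = 1.6e-06, limma), to 0.17 below its untreated mean. GADD45G (1.03), the adhesion gene NCAM2 (1.07), the sialyltransferase ST3GAL6 (0.99), NKIRAS1, an inhibitor of NF-kappa-B (0.96), and POLR3D, a subunit of RNA polymerase III (0.88), moved back too. The move carried NCAM2 (6.91 to 7.04 at 24 h), ST3GAL6 (9.95 to 10.08) and NKIRAS1 (9.10 to 9.28) above all their untreated arrays. GADD45G stayed below its untreated arrays at 24 h, and POLR3D overlapped them.

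RHEX, which takes part in erythropoietin signalling, rose from 6.87, 7.16 and 7.01 to 9.65, 9.52 and 9.67 at 12 h (2.60 ± 0.10 SE, adjusted p = 3.11e-09, limma), fell by 0.92 to 24 h and was at -0.17 against 0 h after 72 h. The chemokine receptor CXCR6 rose from 6.67, 6.63 and 6.73 to 7.60, 7.59 and 7.72 and fell by 1.05 from 12 h to 24 h. EPCAM rose by 0.81 and fell by 0.90, and DDIT4 rose by 0.88 and fell by 0.60. Every 12 h array was above every untreated array for these 4 genes.

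**Figure D4:**
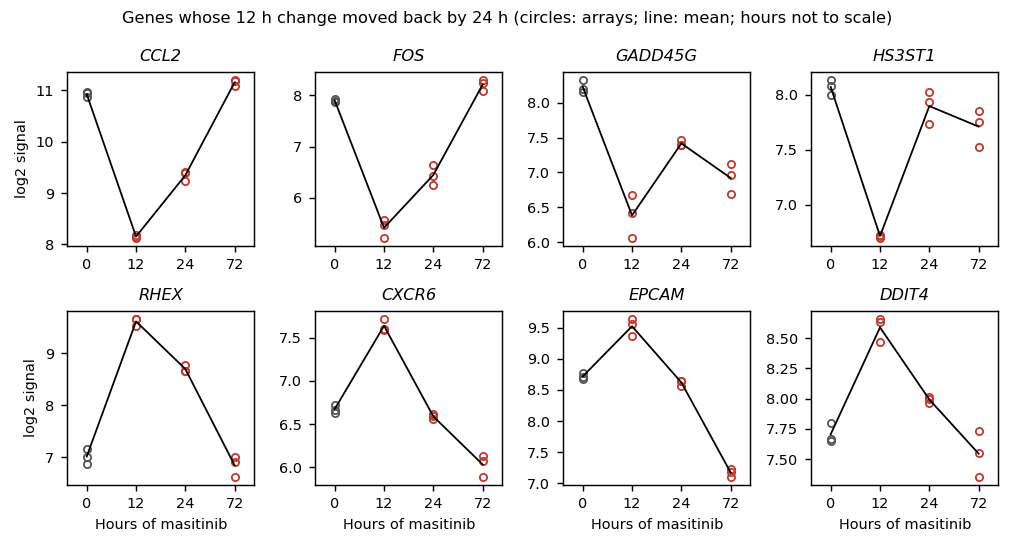
Log2 signal of 8 genes on the arrays of 0 h (grey) and of 12 h, 24 h and 72 h of masitinib (red), with a line through the means; each panel has its own vertical scale and the hours are evenly spaced. In the top row CCL2, FOS, GADD45G and HS3ST1 are lowest at 12 h, and in the bottom row RHEX, CXCR6, EPCAM and DDIT4 are highest at 12 h.

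The untreated array 1 bears on part of these results. It lay more than 1 log2 unit above the median of its group in 64 named probe sets of 61 genes and never as far below it, and none of the other 5 arrays did so in either direction. Examples are a dimmer probe set of DHX9, an RNA helicase (7.58 against 5.99 and 5.83 on the other untreated arrays), and one of DMD, the dystrophin gene (9.47 against 8.21 and 8.17), while the brightest probe sets of both genes did not show it. Over the 64 probe sets the median gene length was 69.0 kb, a gene with several of them counted each time. Over all named genes, each counted once, it was 24.5 kb. In 61 of the 64 probe sets the 12 h mean was above both other untreated arrays, and in 26 it was above array 1 too. Of the 64, 1 was called with array 1 and 4 without it, all 4 of them rises. The 64 were picked because array 1 was high, so leaving it out lowers the untreated mean in each. The direction of these calls is therefore no separate result. Signal at the 3' end minus the 5' end of a control gene is a measure of RNA quality. For actin it was 2.13, 1.65 and 1.78 on untreated arrays 1 to 3, and 1.88, 1.48 and 1.48 on the treated ones. For GAPDH it was 0.63, 0.56 and 0.68 before treatment and 0.52, 0.46 and 0.40 after, without overlap. The part of RNA quality in these results was not tested.

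**Figure D5:**
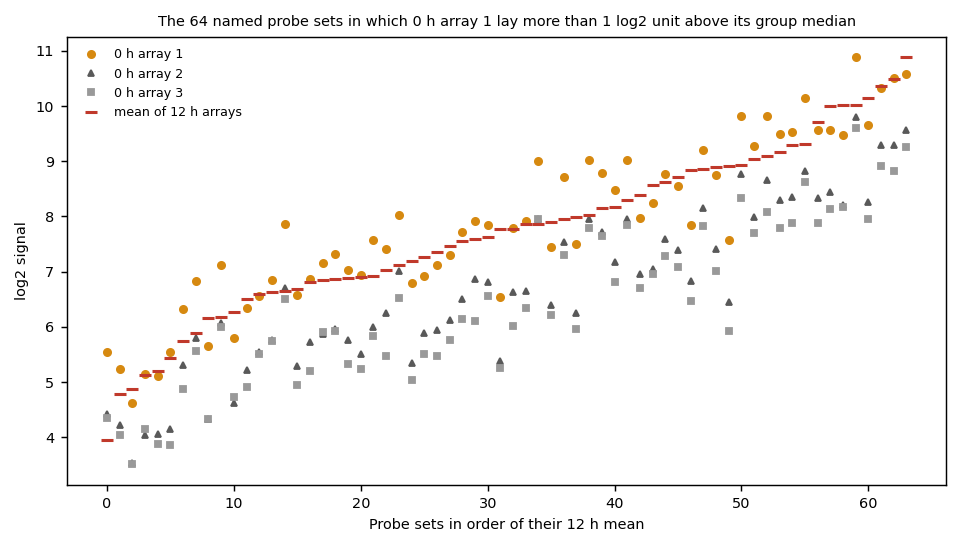
Log2 signal of the 64 probe sets in which untreated array 1 lay more than 1 log2 unit above its group median, in order of their 12 h mean (red dashes). Array 1 (orange) lies above untreated arrays 2 and 3 (grey) throughout, and the 12 h mean is above both of these in 61 of 64.

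Beside KIT, 17 other genes had changes of more than 2-fold without a call. Of all 18, 14 had higher means at 12 h, and in all 14 the treated arrays lay above the untreated ones, as groups did not overlap in 42.4% of all named probe sets. ARID5B, a chromatin factor, gave 7.57, 6.46 and 5.92 before treatment and 8.91 on average after it (2.26, adjusted p = 0.00329, limma). CBLB, a ubiquitin ligase that acts on receptor tyrosine kinases, gave 5.48, 4.52 and 4.55 before and 6.21 after (1.36, adjusted p = 0.0147, limma), and 1 of its other 2 probe sets was called, a rise. Array 1 was the highest untreated array for both. AK9 (2.43), TSPYL2 (2.04) and SNX24 (1.95), which were called, had the same order, with 6.84, 5.94 and 5.51 for AK9, 6.54, 5.38 and 5.26 for TSPYL2 and 5.99, 5.84 and 5.30 for SNX24. The calls of AK9 and TSPYL2 were kept without untreated array 1 (2.81 and 2.45) and lost without any 1 of the other 5 arrays (2.14 to 2.52 and 1.81 to 2.07). How far untreated array 1 shapes these changes was not tested beyond leaving it out.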

How the data were processed

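Total RNA of C2 cells was hybridised to Affymetrix Canine Genome 2.0 arrays, 3 per time point. The authors deposited log2 signals for 43035 probe sets, summarised by a robust multi-array average (gcRMA in their methods) in Partek. These values were used without further scaling, and no array repeated another's values. The 111 Affymetrix control probe sets were left out of the tests. Of the rest, 29254 probe sets had 1 gene symbol in the platform annotation, 439 had several and 13231 had none. Symbols were updated through Entrez identifiers. Each gene was given by its brightest probe set over the 6 arrays of 0 h and 12 h. The files name no genome build, and no coordinates are given.

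A linear model with 1 coefficient per time point was fitted to all 12 arrays, which gives the spread more degrees of freedom, with limma 3.58.1 in R 4.3.3, and p-values were adjusted by Benjamini-Hochberg over 42924 probe sets. A call required a fold change over 1.5 with an adjusted p below 0.001, as in the study's methods, which used an analysis of variance with q-values. Lists were summarised in Python 3.11.15 by counts and medians without a test. The number of arrays limits the precision.

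The comparison and the 53 gene lists and 9 marker lists were chosen with earlier results of these data known. Of 1756 list entries 211 matched no measured gene. Named genes were the 25 largest changes per direction with separate groups, up to 4 called members per list and direction, all members of 4 lists around KIT and ERK, called markers, up to 10 genes per direction that moved back by 24 h, genes whose probe sets disagreed and genes the study names. Others were chosen after their values were seen. Same-numbered arrays did not deviate together (r of deviations -0.177 to 0.00519), so the numbers were not taken to pair samples. Alternatives were another set of arrays, a replicate block, other scalings, filters, thresholds and tests, each array left out in turn, and, added after seeing the data, array weights and a fit without 0 h array 1. The fit was tested on simulated data.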

Additional observations from a re-analysis of the deposited data

Results flagged for a closer look

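For 19 genes listed here, a second look is asked because the change between 12 h and 24 h ran against the change between 0 h and 12 h, each past the thresholds in limma. Of genes that had risen, the log2 change from 12 h to 24 h was -1.05 for CXCR6, -0.92 for RHEX, -0.90 for EPCAM, -0.82 for ATP6V0D2, -0.76 for ALPK1, -0.76 for ARMC9, -0.72 for PIP4P2, -0.65 for ST8SIA1 and -0.60 for DDIT4. Of genes that had fallen, it was 1.19 for CCL2, 1.18 for HS3ST1, 1.07 for NCAM2, 1.03 for FOS, 1.03 for GADD45G, 0.99 for ST3GAL6, 0.96 for NKIRAS1, 0.88 for POLR3D, 0.83 for KLF5 and 0.78 for SAMSN1. Both changes contain the 12 h arrays.

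The spiked controls, which stand outside the comparison of dog genes, were brighter on the 12 h arrays, by 0.240 log2 units over 42 poly-A control probe sets and by 0.191 over 27 hybridization control probe sets. The poly-A controls read 7.61, 7.85 and 7.75 before and 7.94, 8.03 and 7.95 after treatment, and the hybridization controls 10.7, 10.8 and 10.8 before and 11.0, 10.9 and 11.0 after. The arrays of the 2 groups did not overlap in either. No test for a single outlying value was run per gene, since each group has 3 arrays.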

How the results depend on the processing

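Counts and shares here are of named probe sets unless genes are stated. With the replicate block 1069 rose and 1686 fell (61.2% falls), and DLAT, ECT2, GAB2 and TSPYL2 lost their calls, but same-numbered arrays did not deviate together. Scaling to the poly-A controls gave 536 rises and 3472 falls (86.63% falls), or 313 and 1886 genes, and scaling to the hybridization controls 633 and 3038 (82.76%), or 371 and 1645 genes. At more than 2-fold, 367 rose and 587 fell, or 212 and 332 genes. The share of falls was 65.92% with median scaling. Leaving out 1 array gave 909 to 1124 rises, 1414 to 1723 falls and shares of 55.71% to 65.46%, the lowest share in the fit of 5 arrays without untreated array 1, which was chosen after seeing the data, and the highest without treated array 3. With 1 array left out of the fit to all time points, the share was 60.01% at its lowest, and 547 to 623 genes rose and 868 to 958 fell, and in the fit of 5 arrays 628 and 813. The cause of these shifts was not tested. The other alternatives kept these counts within 1.5 times. Of 360 genes followed, 270 were called, 215 of them under every alternative other than more than 2-fold, and none reversed. Leaving out single arrays ended 30 calls, from 13 without treated array 2 to 25 without treated array 1. FOXO1, MYCN, ECT2 (-0.71 to -0.64) and S100A8 lost theirs with any of the 6 left out, and AK9, DLAT (-0.73 to -0.52), GAB2, NCOA2 (1.00 to 1.39), PLK4 (-0.76 to -0.62) and TSPYL2 with 5 of the 6. The others were ALOX5, ARRDC3, AZIN1, DLST, DUSP7, ETV4, FOXM1, ITGA2, KLF6, LCK, NCAM2, OAZ2, PFKP, PIK3R4, PSMA5, RAB13, RAB23, RAB4B, SAMSN1 and SLC7A5. ETV1 gained a call without untreated array 3 (-0.69). Poly-A scaling ended 29 calls and added 13, hybridization scaling ended 18 and added 10, and the methods' analysis of variance ended 21. Array weights, chosen after seeing the data, ended the call of GAB2 and added that of ARID5B. Dim probe sets seldom passed, so a change in a dim gene may have been missed, and the number of arrays limits the precision.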
